A study of Mus musculus with 576 samples.

Results

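Mitochondrial ribosomal protein genes were taken as the protein-coding genes whose symbol starts with Mrpl or Mrps followed by a digit, which gave 78 of the 46078 genes in the count tables. The tables hold 576 single cells from mouse bone marrow of femurs and tibias, sorted as CD150+CD48-cKit+Sca1+ cells, the gate for long-term haematopoietic stem cells. The cells fell into 6 groups of 96, control or LPS-treated marrow, each split into p27 high, p27 low and p27 negative cells by a p27 marker that the series title places among markers of the resting G0 phase. LPS is lipopolysaccharide, the bacterial cell wall component that activates innate immunity. Neither its dose and time nor the strain, age and number of the animals is given in the sources used here. Control and LPS cells were deposited as separate tables, so that any difference in handling cannot be told apart from treatment. The labels tie no cell to an animal, so each group counts as 1 sample: no test was made, no p-value is given, and differences describe these cells only.

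Mitochondria keep their own ribosome, the mitoribosome, which translates the few respiratory chain proteins encoded by mitochondrial DNA. Its RNA is mitochondrially encoded, whereas all of its proteins are encoded in the nucleus, made in the cytosol and imported. Some of these proteins descend from bacterial ribosomal proteins and others were added in mitochondria. Resting stem cells are known for low mitochondrial activity, which rises when they start to divide or differentiate.

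Of the 78 genes, 51 encode proteins of the large subunit, 29 of them with a bacterial homologue and 22 specific to mitochondria. Another 26 encode small subunit proteins, 16 with a bacterial homologue and 10 specific to mitochondria. Mrps18a and Mrps30 carry small subunit names but belong to the large subunit and were counted there. Mrps36 carries the family name, yet its product is a component of the 2-oxoglutarate dehydrogenase complex, and it was kept in the family and in neither subunit.

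Promoters are shown for 5 of these genes because they stand for the patterns described further on and because their windows hold almost no annotated exon (0 to 18 bases). Mrps22 and Mrps18a were lower in p27 high cells, Mrpl17 and Mrpl58 were lower in control p27 high cells and higher there after LPS, and Mrps2 was higher in control p27 high cells. Each line gives the 250 bases before the gene's start, from RefSeq on build GRCm38.p6, written 5' to 3' on the gene's own strand. The windows are chr9:98601680-98601929 (minus strand), chr17:46110754-46111003 (plus), chr7:105811088-105811337 (minus), chr11:115403502-115403751 (plus) and chr2:28467816-28468065 (plus). Capitals mark exact matches, on either strand, to 4 motif words of factors known to drive nuclear genes for mitochondria: GCGCATGC (NRF1), CCGGAAG (the ETS family, which includes GABP), AAGATGGC (YY1) and GGGCGG (Sp1).
Mrps22: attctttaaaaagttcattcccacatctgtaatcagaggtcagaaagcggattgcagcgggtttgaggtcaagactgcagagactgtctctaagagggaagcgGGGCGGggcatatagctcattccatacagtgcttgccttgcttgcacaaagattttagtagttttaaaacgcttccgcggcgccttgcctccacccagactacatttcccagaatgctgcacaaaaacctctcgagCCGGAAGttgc
Mrps18a: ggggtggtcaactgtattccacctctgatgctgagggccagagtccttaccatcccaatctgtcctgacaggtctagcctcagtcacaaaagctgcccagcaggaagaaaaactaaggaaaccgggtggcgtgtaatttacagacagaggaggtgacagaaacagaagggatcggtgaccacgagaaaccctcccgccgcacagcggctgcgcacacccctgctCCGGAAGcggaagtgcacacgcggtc
Mrpl17: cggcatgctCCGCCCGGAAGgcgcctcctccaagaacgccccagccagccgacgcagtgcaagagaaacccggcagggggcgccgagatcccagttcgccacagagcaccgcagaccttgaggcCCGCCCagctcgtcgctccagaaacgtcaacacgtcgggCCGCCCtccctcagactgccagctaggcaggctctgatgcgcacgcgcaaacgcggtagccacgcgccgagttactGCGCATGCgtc
Mrpl58: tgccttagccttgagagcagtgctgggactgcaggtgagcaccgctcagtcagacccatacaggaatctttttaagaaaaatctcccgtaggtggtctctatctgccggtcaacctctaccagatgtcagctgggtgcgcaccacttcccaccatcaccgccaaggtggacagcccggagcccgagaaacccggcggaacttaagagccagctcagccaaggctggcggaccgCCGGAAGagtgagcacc
Mrps2: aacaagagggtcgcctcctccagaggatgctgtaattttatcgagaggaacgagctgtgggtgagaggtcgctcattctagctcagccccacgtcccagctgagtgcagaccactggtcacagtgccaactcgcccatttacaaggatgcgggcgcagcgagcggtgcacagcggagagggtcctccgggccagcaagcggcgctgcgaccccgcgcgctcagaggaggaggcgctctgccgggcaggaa
The genes themselves lie at chr9:98588730-98601660 (Mrps22), chr17:46110986-46128910 (Mrps18a), chr7:105803206-105811099 (Mrpl17), chr11:115403752-115412674 (Mrpl58) and chr2:28468066-28471178 (Mrps2) in the GENCODE annotation of the same build. In Mrpl17 the first capital run joins an Sp1 and an ETS match that overlap, and Mrps2 holds no match.

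RefSeq windows were found for 69 of the 78 genes, 75 windows in all because some genes have several starts. At least 1 of the 4 motif words stood in 53 of the 75 windows (70.7%), against 37.6% of all 32851 gene windows in that table. The ETS word was in 18 windows (24%, against 6.9% of all), the NRF1 word in 8 (10.7%, against 2.3%), the YY1 word in 4 (5.3%, against 1.6%) and the Sp1 word in 37 (49.3%, against 32.7%). The family's windows were also richer in CpG dinucleotides, with a median of 17 against 6, and all 4 words but YY1's contain CpG. These matches describe letters in the window and were not tied to binding in these cells.

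After cells with fewer than 50000 gene reads were left out, 547 cells remained, between 84 and 95 in each group, with 52163 to 1942773 gene reads per cell. Levels are CPM, counts scaled to a fixed total, of the reads summed over a group's kept cells. A second scale, reads per read of the ERCC spike-in RNA added to each cell, is named where it turns a direction. Markers of haematopoietic stem cells were detected in every group, among them Kit (213 to 542 CPM) and Slamf1 (52.5 to 106 CPM), both genes of the sort gate. Some of the other stem cell markers differed far more between groups, as given further on. Of 14 markers of other blood cells, 10 averaged under 5 CPM. The T cell gene Cd3e and the plasmacytoid dendritic cell gene Siglech were at or near 0. The 4 exceptions were Pf4, Gp9, Mpo and Cd48. The megakaryocyte genes Pf4 (67.6 to 687 CPM) and Gp9 (30.1 to 166 CPM) were lowest in p27 high cells of both treatments. The myeloid gene Mpo was higher in p27 high than in p27 negative cells of both treatments (20.7 against 11.6 CPM in control, 11.7 against 2.57 CPM after LPS), and Cd48, a marker the sort selects against, was at 6.91 against 8.20 CPM in control and at 14.4 against 3.96 CPM after LPS. The summed level of the 14 markers was 190, 726 and 882 CPM in the high, low and negative classes of control and 128, 493 and 559 CPM after LPS. One control p27 negative cell had over 50% mitochondrially encoded reads and a family level of 33.9 CPM, the lowest of all kept cells.

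Together the 78 genes took 0.523% of gene reads in control p27 high cells and 0.648% in LPS p27 negative cells, the lowest and highest of the 6 groups. Their summed level in control was 5232 CPM in p27 high (95% exact Poisson interval 5202 to 5263), 6073 CPM in p27 low (6045 to 6101) and 6288 CPM in p27 negative cells (6264 to 6312). After LPS it was 5780 CPM (5755 to 5806), 6228 (6198 to 6257) and 6479 (6457 to 6502) in the same order. Thus the level was lowest in p27 high cells and highest in p27 negative cells under both treatments, and each class was higher after LPS than in control. The reads carry no molecular identifiers, so these intervals cover counting error of reads only, and they say nothing of variation between cells or animals.

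Single cells spread far more widely than the groups differed. In control the median p27 high cell held 4999 CPM (quartiles 4353 and 5839), the median p27 low cell 5901 (4949 and 6766) and the median p27 negative cell 5910 (4972 and 6776). After LPS the medians were 5522 CPM (4539 and 6574), 6063 (5024 and 6931) and 6431 (5664 and 7177). All 6 groups overlapped, with maxima between 8604 and 11475 CPM. Between p27 high and p27 negative cells the medians of control differed by about the distance from the median to a quartile.

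**Figure D1:**
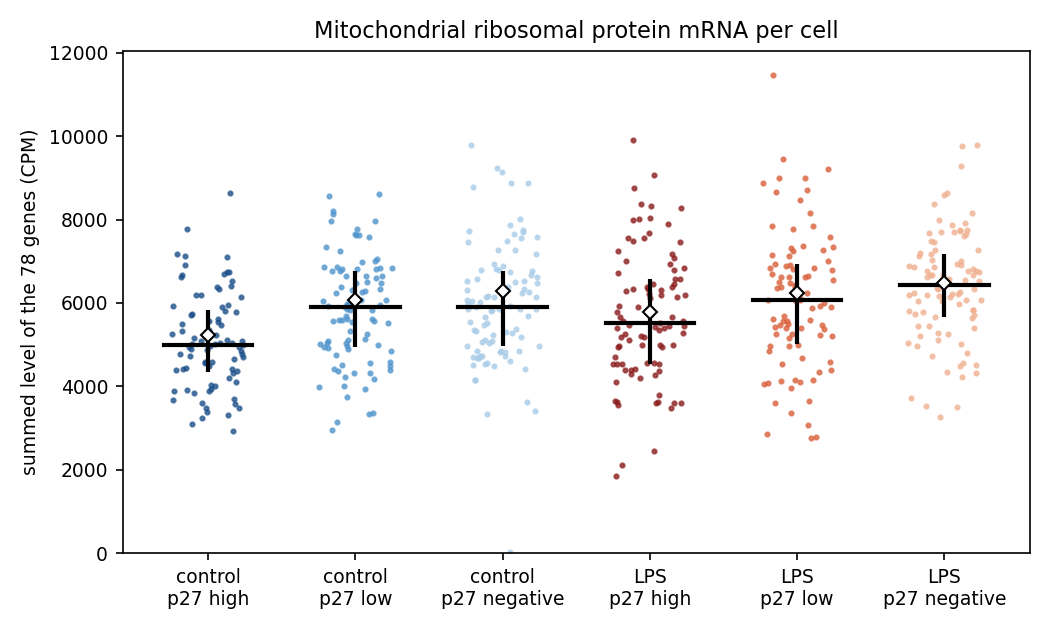
Summed level of the 78 genes in each kept cell (points, CPM) by treatment and p27 class, with the median (horizontal line), quartiles (vertical line) and the level of the summed reads (diamond). Control p27 high cells have the lowest median (4999 CPM) and LPS p27 negative cells the highest (6431 CPM), and all groups overlap.

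More members were also found per cell where the level was higher. After each cell was thinned to 50000 gene reads, the median cell had reads of 37, 42 and 48 of the 78 genes in the high, low and negative classes of control and of 41, 44 and 54 after LPS. Without thinning these medians were 47, 52, 58, 52, 53 and 65. The number of all genes detected at 50000 reads moved with them in p27 negative cells, with medians of 3935, 4165 and 4859 in control and 3976, 3962 and 4924 after LPS. The part of this wider gain in the family's detection was not tested.

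In single genes, 76 of the 78 had a mean of at least 5 CPM over the 6 groups and entered the comparisons, with 11080 genes in all. Their mean levels ran from 5.83 CPM for Mrpl23 to 156 CPM for Mrps17, with a median of 74.7. Below the limit were Mrps36 (3.56 CPM), the nearest to it, and Mrpl53 (0.221 CPM), and 88% of the exon length of Mrpl53 is shared with another gene model on the same strand. Mrpl23 stood just inside the limit and reached it through LPS p27 high cells, at 11.9 CPM against 3.37 to 6.45 elsewhere, so it is kept in the counts and is named where it sets an extreme.

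Scaled by the length of all annotated exons, Mrpl34 had the highest level (143 CPM per kb), followed by Mrpl36 (121), Mrpl28 (104), Mrpl12 (100.2) and Mrps24 (94.8). All but Mrps24 encode large subunit proteins, as do 51 of the 78 members. Mrpl12, a protein of the flexible stalk that also binds the mitochondrial RNA polymerase, held 153 CPM without length scaling. The lowest levels per kb were those of Mrpl53 (0.279), Mrpl23 (1.19), Mrps36 (2.79), Mrpl48 (4.93) and Mrpl33 (5.59). Summed exons include those of long transcripts that may not be used, which lowers the value per kb of such genes.

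The family moved little over the 6 groups compared with all 11080 genes, which were not matched to it for level. The highest group exceeded the lowest by a median of 1.66 times over the 76 genes, from 1.22 for Mrps24 to 3.53 for Mrpl23 and 2.76 for the next, Mrpl16, against 2.40 for all 11080 genes. A ratio of at least 2 was reached by 16 of the 76 genes and by 6991 of the 11080. The lowest of the 6 groups was control p27 high cells for 29 members (38.2%), against 16.1% of all genes, and LPS p27 negative cells for 2 members, against 21.2% of all genes. It was LPS p27 high cells for 15 (15.4% of all genes) and LPS p27 low cells for 13 (21.6% of all genes). Control p27 low cells were lowest for 9 (11.8% of all genes) and control p27 negative cells for 8 (13.9% of all genes). The highest was control p27 negative cells for 20 members (17.5% of all genes), LPS p27 low cells for 15 (13.4% of all genes), LPS p27 negative cells for 15 (11.2% of all genes) and control p27 high cells for 3 (23.6% of all genes).

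**Figure D2:**
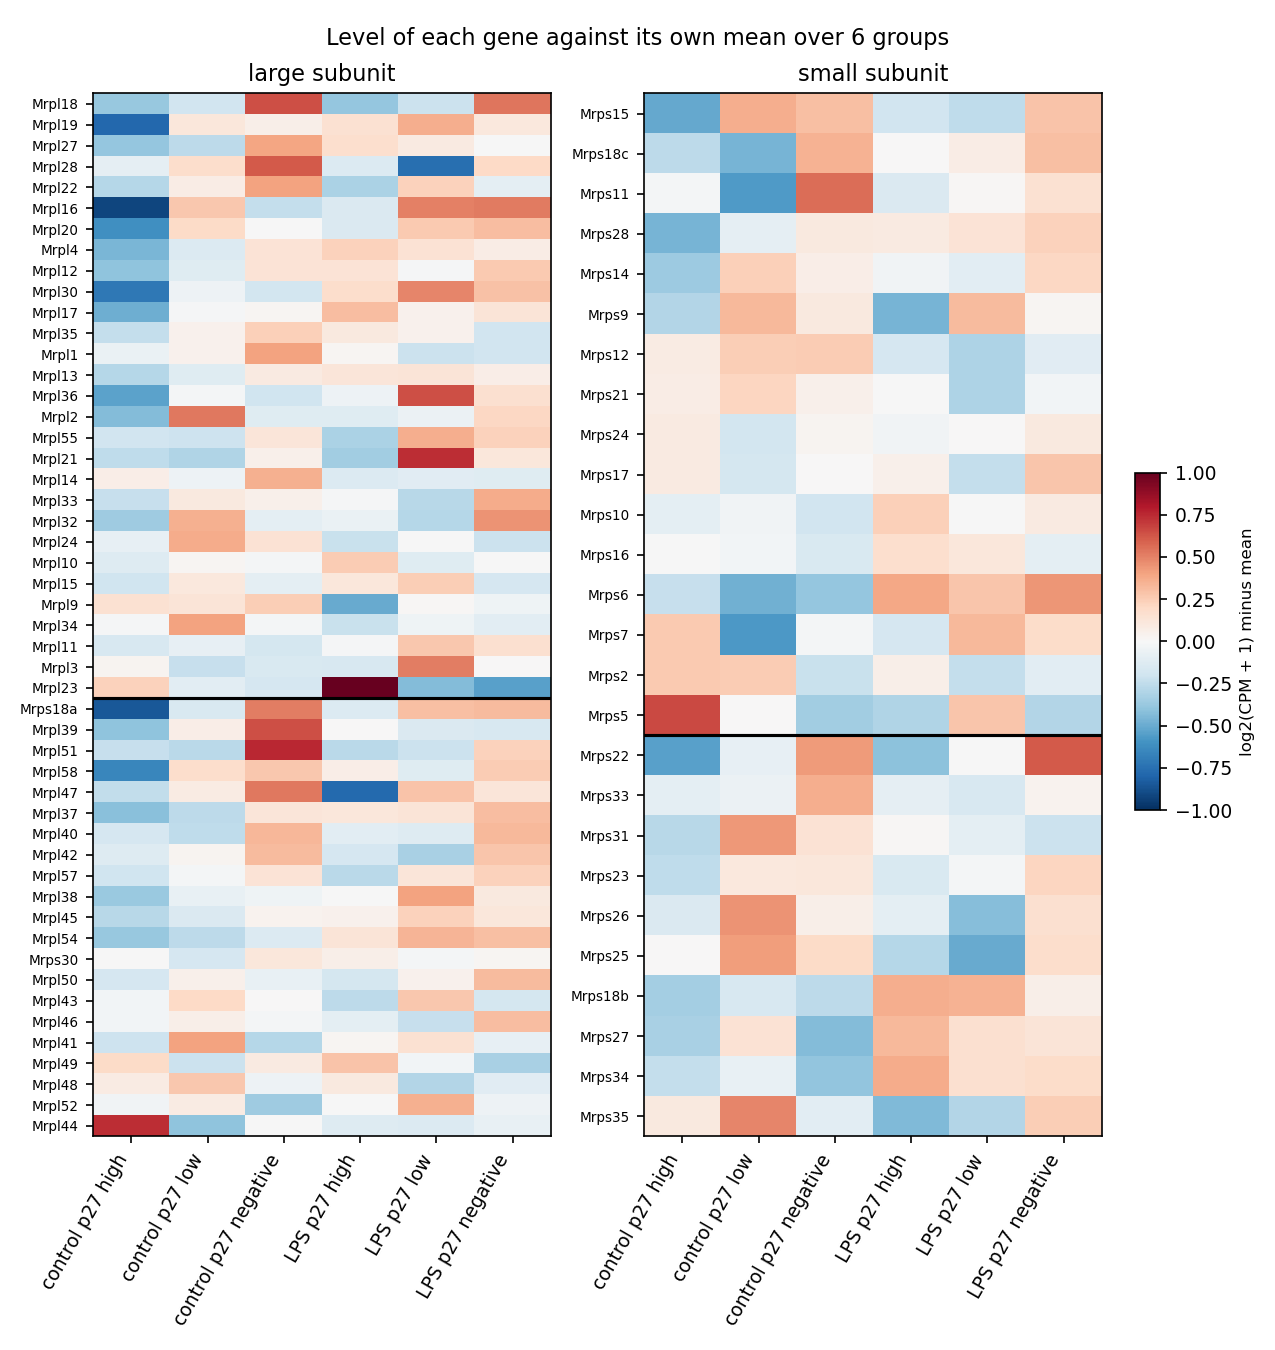
Heat map of the 76 genes in the 6 groups, as log2(CPM + 1) minus the gene's mean over groups, large subunit left and small subunit right. Black lines part genes with a bacterial homologue (above) from mitochondria-specific ones (below), and genes are ordered by the control difference between p27 high and p27 negative cells. Blue cells dominate the control p27 high column of the large subunit panel.

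The comparison of p27 high with p27 negative cells asks how the family differs between cells that carry most and least of the marker. In control marrow 55 of the 76 genes were lower in p27 high cells and 21 were higher, where 46.9% of all genes were lower. The median log2 fold, computed on CPM with 1 CPM added, was -0.31, against 0.05 for all genes. A level at least 1.5 times lower was seen for 16 members (17.8% of all genes) and one at least 1.5 times higher for 2 members (23.5% of all genes). Without the most extreme cell of each gene, with per-cell means and under the other scalings tried, the median stayed below 0.

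The strongest examples on the lower side were mostly large subunit genes, which also make up 51 of the 78 members. Mrps18a was at 38.6 CPM in control p27 high, 63 in p27 low and 101 in p27 negative cells, and at 63.9, 86.9 and 87.6 CPM after LPS (control high against negative -1.36). Its Poisson intervals, which leave out the spread between cells, do not overlap in the 3 control classes. After LPS those of p27 low and negative cells do. Mrpl39, a mitochondria-specific protein, was at 49.8, 69.4 and 104 CPM in control and at 66.2, 59.7 and 59.1 CPM after LPS (-1.05 in control). On the CPM scale the step between classes was thus seen in control alone, and the difference between treatments has no test. Mrpl51 was at 41.7, 40.6 and 83.4 CPM in control (high against negative -0.98, and -0.51 with per-cell means) and at 40.5, 42.3 and 57.8 CPM after LPS.

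Mrpl18 and Mrps22 were lower in p27 high cells under both treatments. Mrpl18, whose bacterial counterpart sits in the central protuberance of the large subunit, was at 63.9, 73.1 and 131 CPM in the high, low and negative classes of control and at 63.6, 71.8 and 121 CPM after LPS. Its log2 folds of high against negative were -1.03 and -0.92, and in each treatment the negative class stood apart from the other two. Mrps22, a mitochondria-specific small subunit protein whose loss causes respiratory chain deficiency, was at 40.8, 56.6 and 80.7 CPM in control and at 44.8, 59.8 and 92.1 CPM after LPS (-0.97 and -1.02). Its level followed the same order of classes in each treatment. Its intervals do not overlap within a treatment, but they cover counting error only and leave out the spread between cells.

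The 21 genes that were higher in control p27 high cells were led by Mrps5 and Mrpl44. Mrps5, a small subunit protein at the site that checks decoding accuracy, was at 84.7, 53.5 and 41.6 CPM in the high, low and negative classes of control (1.01) and at 43.1, 64.7 and 43.4 CPM after LPS (-0.01). One cell held 21% of its reads in control p27 high cells, and without the top cell of each group the control fold was 0.76. Mrpl44, a protein with a ribonuclease III fold, was at 129, 57.8 and 76.3 CPM in control (0.75) and at 70.1, 69.6 and 72.9 CPM after LPS (-0.06). Control p27 high cells had the highest CPM of both genes, and LPS p27 low cells came second for Mrps5. On the spike-in scale both stayed higher in p27 high than in p27 negative control cells (0.57 and 0.31). By the naming rule Mrps2 (141 against 100.02 CPM, 0.49), Mrpl52 (73.9 against 59.2, 0.31) and Mrps7 (180 against 148, 0.28) were the next on the higher side, and the last pair were lower on the spike-in scale. A large subunit gene with a bacterial homologue that fell outside the rule was at 0.39.

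**Figure D3:**
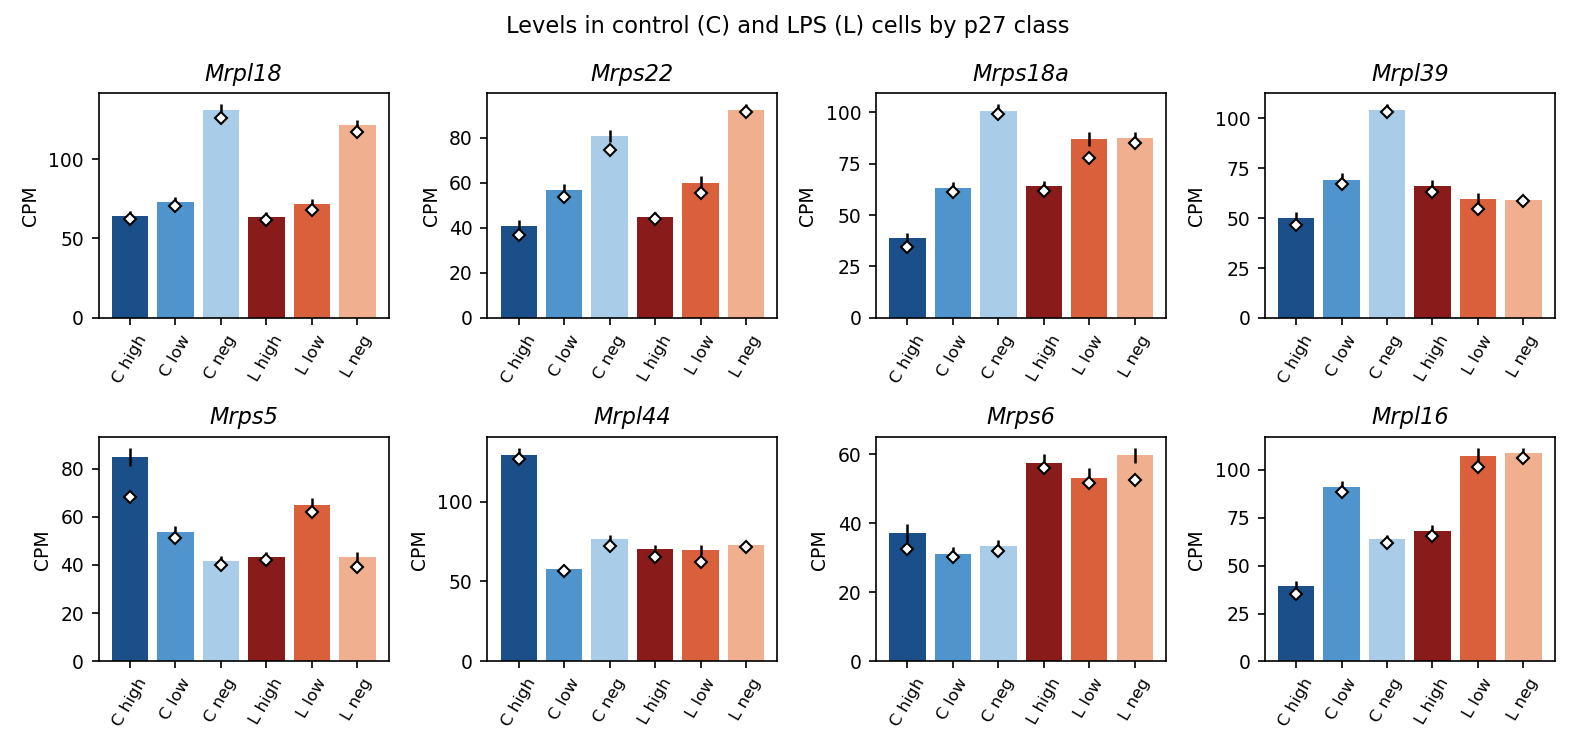
Levels of 8 genes (bars, CPM, with 95% Poisson intervals for counting error) in control (C) and LPS (L) cells of the 3 p27 classes, with diamonds for the level without the cell of highest CPM. Mrpl18 and Mrps22 are lowest in p27 high and highest in p27 negative cells of both treatments, Mrps5 and Mrpl44 are highest in control p27 high cells, and Mrps6 is higher after LPS in each class.

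After LPS the same class difference was smaller on the CPM scale and larger on the spike-in scale. On the latter the medians of the large and small subunit were -0.74 and -0.55 in control and -0.95 and -0.94 after LPS. All genes shifted the same way there. Gene reads per spike-in read were 9.37 in p27 high against 12.7 in p27 negative cells of control, and 25.6 against 44.8 after LPS. Relative to all genes, the family's difference was smaller after LPS on the spike-in scale as well. In CPM, 52 of 76 members were lower in LPS p27 high than in LPS p27 negative cells and 24 were higher. Their median was -0.14 against 0.07 for all genes. At least 1.5 times lower were 5 members (15.8% of all genes) and at least 1.5 times higher were 2, Mrpl49 and Mrpl23 (22.6% of all genes). The 5 lowest by the naming rule were Mrps22, Mrpl18, Mrpl47 (21.1 against 40.1 CPM, -0.90), Mrps35 (56.1 against 90.9, -0.69) and Mrpl16 (68.2 against 109, -0.66). The highest by that rule, which leaves out Mrpl23, were Mrpl49 (104 against 67.2 CPM, 0.62), Mrps18b (71.4 against 57.4, 0.31), Mrpl35, Mrpl15 and Mrps16 (0.27 to 0.30), all of which were lower on the spike-in scale. With per-cell means these 5 folds lay between 0.15 and 0.26, with Mrpl49 at 0.17. Exons of Mrps18b overlap an antisense gene over 30.5% of their length, and since the strand setting of the counting is not given, their reads cannot be told apart.

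Of the 76 genes, 42 (55.3%) were lower in p27 high than in p27 negative cells under both treatments, against 28.6% of all genes. Another 11 (14.5%) were higher under both, against 36.2% of all genes. Across genes the 2 sets of folds had a Spearman correlation of 0.36 in the family and 0.40 over all 11080 genes. These are correlations across genes of the same 4 groups, and genes are not independent replicates.

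**Figure D4:**
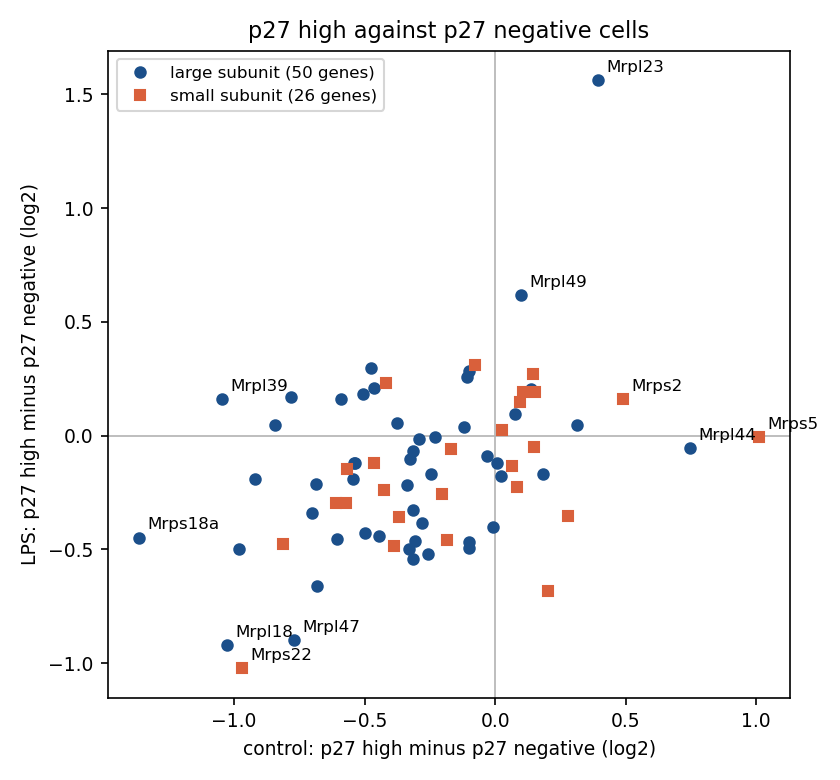
Log2 fold of p27 high against p27 negative cells in control (horizontal axis) and after LPS (vertical axis), 1 point per gene, large subunit as circles and small subunit as squares. Of 76 genes, 42 lie to the lower left of 0 and 11 to the upper right, with Mrpl18, Mrps22 and Mrpl47 near the lower left corner and Mrpl23, the least expressed, highest after LPS.

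On the CPM scale the p27 low class lay between the others or near the negative class. In control, 56 of 76 genes were lower in p27 high than in p27 low cells (median -0.18, against 0.00 for all genes), 14 of them at least 1.5 times (16.3% of all genes), and 3 were at least 1.5 times higher (18.8% of all genes). Between p27 low and p27 negative control cells 41 were lower and 35 higher (median -0.03, against 0.06), 7 at least 1.5 times lower (16.1% of all genes) and 3 at least 1.5 times higher (20.7% of all genes). After LPS p27 high and low cells were close, with 40 lower and 36 higher and a median of -0.02 (0.06 for all genes) that turned to 0.08 on the spike-in scale. There 7 members were at least 1.5 times lower (13.9% of all genes) and 2 at least 1.5 times higher (22.2% of all genes). LPS p27 low against p27 negative cells gave 42 lower and 34 higher (median -0.03, against 0.03), 7 at least 1.5 times lower (18.1% of all genes) and 1 at least 1.5 times higher (17.3% of all genes). On the spike-in scale this last median was -0.93 (-0.86 for all genes), and all 76 members were lower. The LPS p27 low class thus lay near the high class on that scale. In control the spike-in medians were -0.25 for high against low and -0.39 for low against negative cells.

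LPS against control asks how the family differed between treatments within 1 class. In p27 high cells 47 of 76 members were higher after LPS and 29 lower, with a median log2 fold of 0.12 where all genes had -0.10. On the spike-in scale the median of all genes was 1.30 and all 76 members were higher after LPS in each of the 3 classes. Gene reads per spike-in read rose from 9.37 to 25.6 in the high, 9.84 to 23.9 in the low and 12.7 to 44.8 in the negative class. The count of 76 thus goes with a shift of all genes and is not particular to the family. On the CPM scale 12 members were at least 1.5 times higher (15.5% of all genes), and 3 were at least 1.5 times lower (24.6% of all genes). Leading on the higher side by the naming rule were Mrpl19 (51 CPM in control, 98.5 after LPS, 0.93), Mrpl30 (75.6 and 141, 0.89), Mrpl17 (96.1 and 167, 0.80), Mrpl16 (39.4 and 68.2, 0.78) and Mrpl58 (34.2 and 56.7, 0.71). All 5 encode large subunit proteins, as do 51 of the 78 members, and Mrpl58 also works as a peptidyl-tRNA hydrolase that frees stalled mitoribosomes. With per-cell means the 5 folds ran from 0.46 for Mrpl17 to 0.89 for Mrpl19. For Mrpl19, 36% of the exon length lies opposite another gene, Gcfc2. On the lower side stood Mrps5 (-0.96), Mrpl44 (-0.87), Mrpl9 (75.7 and 47.6 CPM, -0.66), Mrps35 (-0.54) and Mrpl47 (-0.53), and all 5 were higher after LPS on the spike-in scale. With per-cell means these folds ran from -0.80 for Mrps5 to -0.24 for Mrpl9.

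In p27 low cells 43 members were higher after LPS and 33 lower, with a median of 0.07 (all genes -0.17). At least 1.5 times higher were 6 (14.5% of all genes) and at least 1.5 times lower 7 (30% of all genes). Mrpl21 went from 34.1 to 71.1 CPM (1.04), Mrps7 from 100.3 to 188 (0.90), Mrps6 from 31 to 53.1 (0.76), Mrpl3, a protein close to the peptidyl transferase centre, from 101 to 169 (0.74) and Mrpl36 from 134 to 213 (0.67). In the opposite direction were Mrpl28 (155 to 81.2 CPM, -0.93), Mrps25 (96.5 to 50.7, -0.92), Mrps26 (142 to 76.8, -0.87), Mrps35 (108 to 62.3, -0.78) and Mrpl32 (65.3 to 41.7, -0.64), again all higher on the spike-in scale. Nr2c2 lies opposite 69.8% of the exon length of Mrps25.

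In p27 negative cells 41 members were higher after LPS and 35 lower, with a median of 0.06 (all genes -0.13), 2 at least 1.5 times higher (12.6% of all genes) and 2 at least 1.5 times lower (22.8% of all genes). By the naming rule the highest folds were those of Mrps6 (0.82), Mrpl16 (63.8 to 109 CPM, 0.76), Mrps34 (16 to 24.3, 0.57), Mrps27 (39.2 to 58.6, 0.57) and Mrpl32 (47.5 to 70.1, 0.55). The lowest by that rule were Mrpl39 (104 to 59.1 CPM, -0.80), Mrpl51 (83.4 to 57.8, -0.52), Mrpl22, Mrpl14 and Mrpl35 (-0.50 to -0.44), which were higher on the spike-in scale. A large subunit gene with a bacterial homologue that fell outside the rule was at -0.59. Mrps34 shares 63.4% of its exon length with Mapk8ip3 on the opposite strand and 37% with Nme3 on its own strand, and 24.2% of Mrps27 lies opposite a noncoding transcript.

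Mrps6, the small subunit counterpart of bacterial S6, was higher after LPS in every class. It was at 37, 31 and 33.3 CPM in the high, low and negative classes of control and at 57.5, 53.1 and 59.7 CPM after LPS. The LPS and control intervals, which leave out the spread between cells, do not overlap, and the classes within a treatment lay closer together. Without the top cell of each group the folds were 0.77, 0.75 and 0.70. Its exons share 19.9% of their length with the model Gm49711 and 10.4% with Slc5a3 on the same strand. Over the family, 21 genes (27.6%) were higher after LPS in all 3 classes, against 15.9% of all genes, and 11 (14.5%) were lower in all 3, against 30.2% of all genes.

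By subunit, the control difference between classes was larger in the large subunit. Large subunit genes summed to 3341, 4001 and 4270 CPM in the high, low and negative classes of control and to 3885, 4303 and 4304 CPM after LPS. Small subunit genes summed to 1888, 2067 and 2013 CPM in control and to 1892, 1922 and 2172 CPM after LPS. In control high against negative cells 41 of 50 large subunit genes were lower (median -0.32) and 14 of 26 small subunit genes (median -0.12). The reads of the large subunit per read of the small were 1.77, 1.94 and 2.12 in control and 2.05, 2.24 and 1.98 after LPS. The order of classes in this ratio thus differed between treatments, and the difference has no test.

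Within the large subunit, genes with a bacterial homologue and mitochondria-specific ones had like medians in that control comparison (-0.34 with 25 of 29 lower, and -0.31 with 16 of 21 lower). In the small subunit they were 0.05 with 7 of 16 lower, and -0.19 with 7 of 10 lower. The 0.05 turned to -0.11 with per-cell means and to -0.11 without the top cell of each group, so the direction of that class depends on the setting. After LPS the 4 medians lay between -0.19 and -0.12. The mitochondria-specific small subunit genes were all 10 lower in control p27 high than in p27 low cells (median -0.40), and 3 of 10 were lower after LPS (median 0.09).

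Members with a role of their own gave no common direction. Mrpl12 was at 114, 140 and 167 CPM in the high, low and negative classes of control and at 167, 150 and 182 CPM after LPS. Mrpl10, which anchors the stalk, was at 57.5 to 75.2 CPM and Mrpl11, at the stalk base, at 56.8 to 78.1 CPM over the 6 groups. Mrps12, part of the accuracy centre, was at 97.7 to 110 CPM in control and at 74.3 to 85.2 CPM after LPS, lower in all 3 classes except on the spike-in scale. Mrpl45, which ties the mitoribosome to the inner membrane, was at 83.4, 91.7 and 104 CPM in control and at 105, 119 and 109 CPM after LPS. Mrps30 stayed between 58.8 and 71.8 CPM. Mrps18a, Mrps18b and Mrps18c all descend from bacterial S18, but only Mrps18c was counted as a bacterial homologue, and Mrps18a (large subunit) and Mrps18b (small subunit), which have no bacterial counterpart at their place in the ribosome, were counted as mitochondria-specific. Over the 6 groups Mrps18c was at 14.6 to 26.4 CPM, Mrps18b at 43.4 to 71.4 CPM and Mrps18a at 38.6 to 101 CPM, and 23.2% of Mrps18c overlaps another model on its own strand.

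Mitoribosomal proteins named outside the family moved alike in part. All 5 of them (Dap3, Ptcd3, Chchd1, Aurkaip1 and Gadd45gip1) were lower in control p27 high than in p27 negative cells (median -0.36), and 4 of 5 after LPS (-0.19). Ptcd3, a small subunit protein that binds RNA, was at 34.2, 62.5 and 63.3 CPM in control and at 48.4, 97.9 and 86.6 CPM after LPS. Dap3, a GTP-binding small subunit protein, differed little between control high and negative cells (163 and 165 CPM).

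The large ribosomal RNA of mitochondria, mt-Rnr2, was at 34095, 32867 and 40685 CPM in the high, low and negative classes of control and at 32402, 33243 and 32431 CPM after LPS. The high control p27 negative value included the cell of over 50% mitochondrially encoded reads. Without the top cell of each group the control fold of high against negative went from -0.25 to -0.06 for mt-Rnr2 and from -0.23 to -0.07 for the small RNA mt-Rnr1.

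Other steps of mitochondrial gene expression were taken from fixed lists, and examples are named among genes of at least 10 CPM on average. In control high against negative cells 16 of 28 mitoribosome assembly genes were higher, where 52.9% of all genes were. Their median was 0.31, and 0.10 with per-cell means, with Mrm1, a ribosomal RNA methyltransferase (101 against 34.3 CPM), and Nsun4, also a methyltransferase (73.4 against 30.1), at the top and Mettl15 (11.7 against 24.6) and Rcc1l (32.7 against 62.7) at the bottom. Of 14 translation factors that could be compared 9 were higher (median 0.31, and 0.21 with per-cell means), led by the elongation factor Guf1 (186 against 93.1 CPM), while the elongation factor Gfm1 was at 43.1 against 58.9. Genes of mitochondrial DNA expression were higher in 10 of 15 (median 0.31, and 0.23 with per-cell means), although the RNA polymerase Polrmt was at 34.3 against 67.6 CPM. After LPS these 3 medians were 0.00, -0.09 and -0.26. All values of these lists are on the CPM scale, and they were not computed per spike-in read. Control p27 high cells had 9.37 gene reads per spike-in read and p27 negative cells 12.7, a gap that lowers folds of this comparison on that scale. The control medians of 0.31 thus describe the CPM scale only. Mitochondrial tRNA synthetases had a median of -0.18 (12 of 20 lower) and protein import genes of -0.16 (16 of 26 lower), with Timm50 at 160 against 274 CPM and Tomm40 at 75.5 against 129.

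Against larger groups, the family stood with the nuclear genes of the respiratory chain and ATP synthase, 69 of 78 of which were lower in control p27 high than in p27 negative cells (median -0.35) and again 69 of 78 after LPS (-0.26). Cytosolic ribosomal proteins were higher in 61 of 77 in each treatment (0.20 in control, 0.16 after LPS), medians that turned to -0.21 and -0.63 on the spike-in scale. Per 100 reads of cytosolic ribosomal proteins the family had 21.4, 25.8 and 29.6 reads in the high, low and negative classes of control and 24.2, 26.1 and 30.3 after LPS. This ratio, which no scaling changes, was lowest in p27 high and highest in p27 negative cells of each treatment. Per 100 reads of the respiratory chain list the family had 37.3, 37 and 34.9 reads in control and 40.4, 40.01 and 38.7 after LPS.

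**Figure D5:**
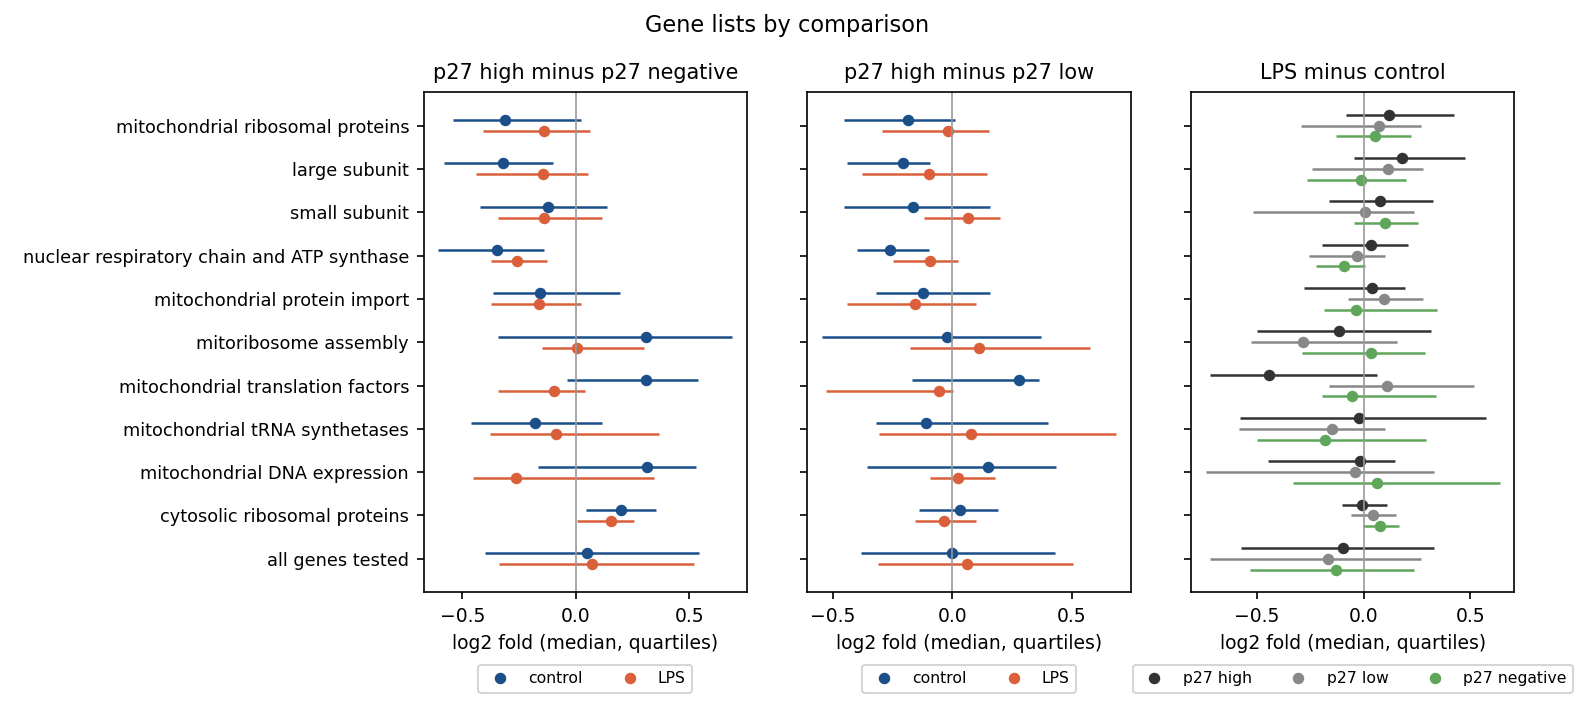
Median log2 fold (points) and quartiles over genes (bars) of the family, its subunits, other mitochondrial lists, cytosolic ribosomal proteins and all 11080 genes, for p27 high against negative, p27 high against low and LPS against control. In the first panel the family (-0.31 and -0.14) and the respiratory chain (-0.35 and -0.26) lie below 0 and cytosolic ribosomal proteins (0.20 and 0.16) above, the last only on the CPM scale.

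Genes of cell division moved with the p27 classes too. The summed level of 30 G2/M genes was 359, 577 and 7695 CPM in the high, low and negative classes of control and 372, 257 and 6630 CPM after LPS, and that of 30 S phase genes was 4655, 4087, 7288, 5130, 4219 and 7031 CPM in the same order. The 11 stem cell markers summed to 3047, 2422 and 1639 CPM in control and 3001, 2254 and 1551 CPM after LPS. Gene by gene, 9 of 11 were higher in p27 high than in p27 negative cells in control and 8 of 11 after LPS. Against p27 low cells 5 of 11 were higher in control p27 high cells and 7 of 11 after LPS. Between treatments 9, 9 and 6 of the 11 were lower after LPS in the high, low and negative classes, which the sums do not show. In p27 low cells the log2 folds of LPS against control ran from -5.08 to 3.14 over the 11 markers. After LPS those of p27 low against p27 negative cells ran from -2.99 to 1.26. The part of these differences, and of the other blood cell markers, in the family's class difference was not tested.

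Across the cells of 1 group, the family level went with the respiratory chain list, with Spearman correlations of 0.48 to 0.72 over the 6 groups of 84 to 95 cells. It went with S phase genes at 0.21 to 0.46, with G2/M genes at -0.01 to 0.31 and with the cell's gene reads at 0.02 to 0.32. With the stem cell markers the correlation was -0.41 to -0.19 in 5 groups and 0.01 in LPS p27 negative cells. The large and small subunit levels of a cell correlated at 0.21 to 0.51. The values of a cell share 1 library and 1 total, so these correlations are descriptions only.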

How the data were processed

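Single-cell RNA of 576 sorted cells was amplified as described by Picelli et al. and prepared with Nextera XT, per the labels' protocols. Per the submitters' processing notes, GSNAP, HTSeq 0.6.0 and build mm10 were used. Annotation release, strand setting and read filters: not given in the sources used here. The authors deposited 2 tables of raw counts of reads per gene, without normalization. Of all reads 34.1% were assigned to genes, 2.06% to spike-ins and 63.8% to no gene, and only gene reads entered the totals. Symbols and 1-based coordinates came from GENCODE M21 (GRCm38).

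Cells with at least 50000 gene reads were kept. Group levels are CPM of summed reads, log2 folds have 1 CPM added, genes needed a mean of 5 CPM, and a 1.5-fold limit marked larger differences. No doublets were removed and no clustering was done. Each library is 1 well, and the files hold no cell barcodes.

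Named members were the 5 highest and 5 lowest folds of 5 comparisons (mean of at least 10 CPM, same sign in summed levels, per-cell means and without the top cell of each group), the 5 highest and lowest levels per kb, and members with a role of their own. The members and lists were chosen with earlier results of these data known. The calculation of folds was checked on simulated counts: of 200 genes changed 1.5-fold among 11080, 100.0% came out in the right direction. These counts were Poisson draws around 1 profile shared by all cells, without further spread between cells. The check therefore says nothing of how stable the folds of the real cells are. In all, 14 alternatives were tried, including TMM factors from edgeR 4.0.16 (R 4.3.3). Python 3.11.15 and numpy 2.4.6 were used.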

Additional observations from a re-analysis of the deposited data

Results flagged for a closer look

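For 11 members LPS and control differed in opposite directions in 2 p27 classes, by at least 0.32 (log2) in each on the CPM scale. These are 14.7% of the 75 members with a mean of at least 10 CPM, and 16.9% of all 9744 such genes met the same rule. Each class and treatment is 1 sample, so these differences between classes were not tested. The gap between the 2 log2 folds was 1.33 for Mrps7 (0.90 in p27 low and -0.43 in p27 high cells), 1.21 for Mrpl39 (p27 high 0.40, p27 negative -0.80), 1.19 for Mrpl32 (0.55 in p27 negative and -0.64 in p27 low cells) and 1.13 for Mrps35 (0.35 in p27 negative and -0.78 in p27 low cells). It was 0.98 for Mrps11, 0.95 for Mrpl27, 0.94 for Mrps15, 0.92 for Mrpl2, 0.77 for Mrpl35, 0.70 for Mrpl33 and 0.67 for Mrps14. On the spike-in scale, where all genes shifted together, all 11 were higher after LPS in every class, as was every other member compared.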

How the results depend on the processing

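The 9 median log2 folds of the family kept their sign under 13 of the 14 alternatives. Their ranges were -0.40 to -0.25 for p27 high against negative, -0.24 to -0.16 for high against low and -0.09 to -0.03 for low against negative cells in control. After LPS they were -0.22 to -0.12, -0.09 to -0.01 and -0.10 to -0.02, and between treatments 0.07 to 0.25, 0.05 to 0.23 and 0.03 to 0.18 for the high, low and negative class. TMM factors gave 0.23 (all genes -0.01) for LPS against control in p27 low cells and 0.18 (all genes -0.01) in p27 negative cells.

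On the spike-in scale, reads per ERCC read, all genes shifted together: their medians became -0.37 and -0.29 for high and low against negative control cells, -0.72, 0.16 and -0.86 for high against negative, high against low and low against negative LPS cells, and 1.30, 1.06 and 1.64 between treatments for the high, low and negative class. The family's medians were -0.72, -0.39, -0.94, 0.0791, -0.93, 1.54, 1.33 and 1.84 in the same order, so its sign changed in 1 comparison, and relative to all genes it stayed lower in p27 high cells. Spike-ins took 9.64% of reads in control p27 high and 2.18% in LPS p27 negative cells, and the cause was not tested.

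No paired analysis was possible because the results come from no test and the numbers in the labels count cells. Counts of larger differences move with the limit: at 2 times, 3 members in place of 16 were lower in control p27 high than p27 negative cells (8.47% of all genes), and 0 in place of 12 were higher in p27 high cells after LPS (7.63% of all genes). Adding Mrpl53 and Mrps36, which fell below the filter, left the sign of all 9 medians as it was.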
